A study of Mus musculus with 18 samples.

Results

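The transcriptome of prostate tissue lacking epithelial Elac2 was compared with that of wild-type tissue in 10-week-old mice of the TRAMP model, in which viral T antigens start prostate neoplasia. The comparison covered 6 of the 18 samples of the series: 3 libraries of ELAC2-/- / TRAMP +/- mice (KO-TRAMP) and 3 of ELAC2+/+ / TRAMP +/- mice (WT-TRAMP). Its members were all genes whose normalized counts averaged 10 or more over these 6 libraries, which kept 15451 of the 55469 genes listed. All 6 mice were males, were age- and littermate-matched and carried the TRAMP transgene on 1 allele. The study's methods give the background of the mutant Elac2 lines as C56NL/6N. These lines were bred with TRAMP mice, whose strain the methods do not state. KO-TRAMP mice were homozygous for an Elac2 allele with exon 8 between loxP sites, cut out by Pb-Cre. The probasin promoter (Pb) drives both the Cre recombinase and the T antigens, and it is active in prostate epithelium, so that the stroma, vessels and immune cells of a KO-TRAMP lobe keep their Elac2. RNA came from whole ventral and lateral lobes, dissected free of seminal vesicle, bladder, urethra and fat. In such bulk tissue, fewer cells of a type and less RNA per cell cannot be told apart. The column headers carry a library number and no replicate number. Libraries are therefore called by these numbers, 1, 2 and 3 for WT-TRAMP and 7, 8 and 9 for KO-TRAMP, and values are given in that order.

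ELAC2 is the long form of RNase Z, an endonuclease that removes the 3′ trailer of precursor tRNAs in both the nucleus and the mitochondria. Mitochondrial genes are transcribed as long polycistronic RNAs in which tRNAs punctuate the mRNAs and rRNAs, so that cleavage at the tRNA ends also frees the messages between them. The luminal cells of the ventral and lateral lobes are secretory cells that make large amounts of a few lobe-specific proteins, which are folded in the endoplasmic reticulum (ER) by a set of chaperones. The comparison asks how the loss of this nuclease alters RNA levels at an age when TRAMP lesions are early.

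The deleted exon and its gene are shown first because they define the groups. Exon 8 of Elac2 lies at chr11:64985563-64985621, plus strand (GRCm38, GENCODE annotation), in the coding region. It is 59 bases long and is 1 of 25 exons of a transcript of 2771 bases. It holds 2.13% of that transcript, and its length is 2 bases past a multiple of 3. A gene-level count covers all exons, and the epithelium is only a portion of the tissue. What the deletion does to the level of the remaining transcript was not tested. All bases are in lower case because the whole exon is removed.
Elac2: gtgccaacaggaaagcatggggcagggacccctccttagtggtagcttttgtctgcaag

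Elac2 (ENSMUSG00000020549.14, chr11:64979038-65002069, plus strand) had normalized counts of 359, 289 and 307 in WT-TRAMP and 301, 262 and 254 in KO-TRAMP, from 231 to 411 reads per library. The KO-TRAMP values were at the lower end, and library 7 lay within the WT-TRAMP range. Here and below, a fold change is that of KO-TRAMP over WT-TRAMP on the log2(normalized count + 1) scale, SE is its standard error, and limma's p was adjusted by Benjamini-Hochberg over all genes tested. The difference did not exceed the spread between libraries (log2 fold change −0.22, SE 0.14, adjusted p 0.808 by limma, exact two-sided permutation p 0.2, where 3 libraries against 3 cannot go below 0.1). Leaving out each library in turn gave log2 fold changes from −0.29 to −0.13. The 266 genes within 10 Mb of Elac2 had a median log2 fold change of −0.01, and 11.3% of them lacked overlap between the groups, both close to the values of all genes given below.

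The libraries held between 9380174 and 13094183 reads. Pearson correlations of log2 values were 0.925 to 0.960 between the groups and at least 0.943 within each group, and the first principal component took 35.1% of the variance with libraries 1 and 8 at its ends. Some libraries stood apart in the RNA levels of marker genes of other tissues or cell types. Seminal vesicle secretory genes (8 measured) had mean log2 levels of 1.47, 1.19 and 1.91 in WT-TRAMP and 2.75, 5.89 and 11.36 in KO-TRAMP, with library 9 far above the rest. Skeletal muscle genes were highest in libraries 2 and 9, and Schwann cell and neuroendocrine genes in libraries 3 and 8. Library 1 was lowest in smooth muscle genes. The part of these differences in the results was not tested.

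**Figure D1:**
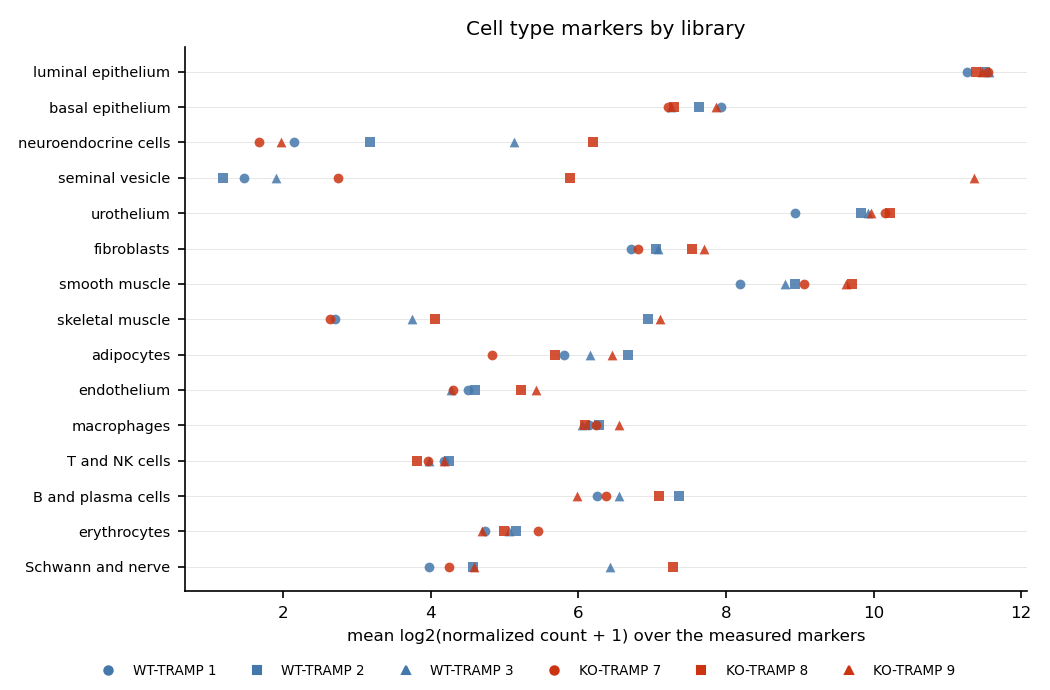
Mean log2(normalized count + 1) over the measured markers (horizontal axis) of each cell type list (1 row each) in the 6 libraries, with WT-TRAMP libraries 1, 2 and 3 and KO-TRAMP libraries 7, 8 and 9 told apart by colour and shape. The seminal vesicle list runs from 1.19 in library 2 to 11.36 in library 9, while the luminal epithelium list differs little among the 6 libraries.

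Across the 15451 genes, 2 passed limma's test at an adjusted p of 0.05 (0.0129% of those tested, 0.00647% in each direction). A further measure was whether all 3 KO-TRAMP libraries lay above, or all 3 below, every WT-TRAMP library. Such a lack of overlap held for 892 genes on the higher side (5.77%) and 967 on the lower side (6.26%), 12.0% in either direction. At an unadjusted limma p under 0.05 there were 1026 genes (6.64%), 573 higher in KO-TRAMP (3.71%) and 453 lower (2.93%). DESeq2, run on the recovered reads as an alternative, called 42 higher (0.272%) and 41 lower (0.265%), or 0.537% in all, and 39 of the former and 40 of the latter did not overlap between the groups. On the same reads edgeR's quasi-likelihood test called 0 genes (smallest adjusted p 0.0519), so a DESeq2 call below was not shared by edgeR. The median log2 fold change over all genes was −0.01. All p-values measure the spread between 3 mice per group, and the words higher and lower without a passing test below describe the values of these libraries.

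**Figure D2:**
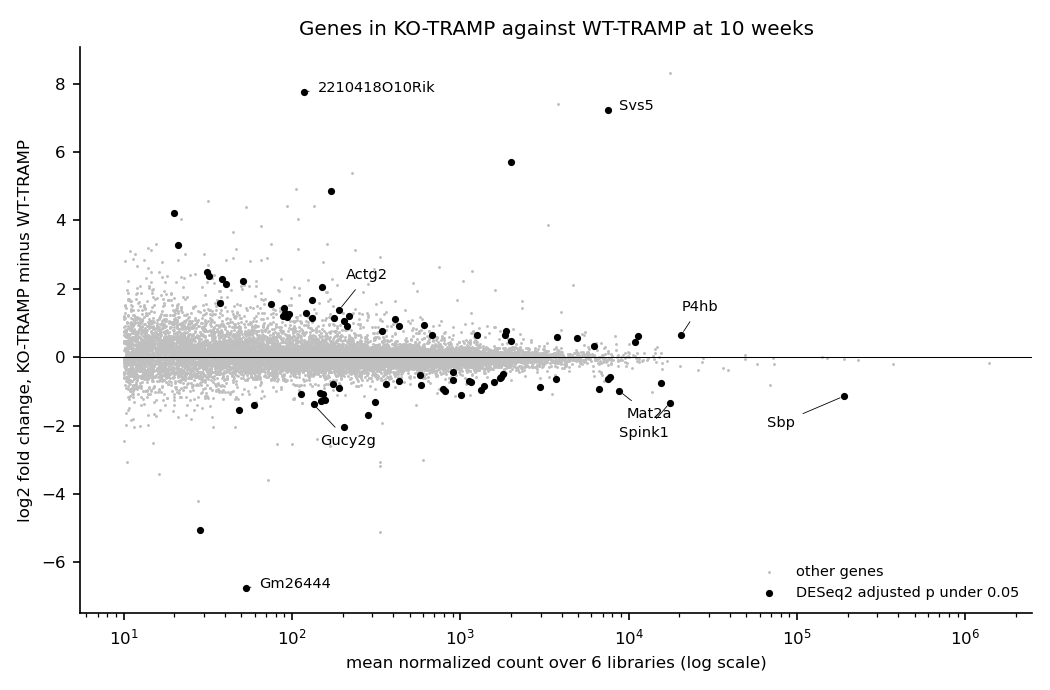
Log2 fold change of KO-TRAMP over WT-TRAMP (vertical axis) against the mean normalized count on a log axis (horizontal axis) for the 15451 genes. Black points are the 83 genes called by DESeq2, some with their names, among them the 2 past the limma threshold, 2210418O10Rik above and Gm26444 below, and the cloud is centred near the median of −0.01.

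Both genes that passed were all or none. 2210418O10Rik, a clone-named gene on chromosome 2, had no read in the WT-TRAMP libraries and normalized counts of 132, 220.3 and 355 in KO-TRAMP, at least 73.2-fold higher when the WT-TRAMP group is set to a floor of 3 reads per library (limma adjusted p 0.00295). Gm26444 had 97.9, 124 and 98 in WT-TRAMP and no read in KO-TRAMP, at least 38.1-fold lower by the same floor (limma adjusted p 0.00356). Each is a near-identical copy of another gene. All words of 31 bases of 2210418O10Rik also occur in Gm14296, and all those of Gm26444 in Rnu1a1, a gene of the U1 small nuclear RNA, so that reads could be assigned to either copy and both values are uncertain. Neither call held in every set of libraries. The limma adjusted p of 2210418O10Rik was 0.076 without library 8 and 0.0543 without library 9, and that of Gm26444 was 0.12 without library 1 and 0.152 without library 2.

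Next in rank, without passing, came genes with tight groups. Gucy2g, a membrane guanylyl cyclase, had 192, 228 and 164 in WT-TRAMP and 79.1, 75.4 and 67 in KO-TRAMP. Each KO-TRAMP library was below every WT-TRAMP library by a wide gap (log2 fold change −1.38, SE 0.18, adjusted p 0.234 by limma, DESeq2 adjusted p 1.9e-05, edgeR adjusted p 0.221). Cercam, an endothelial adhesion protein related to collagen galactosyltransferases, had 209, 228 and 189 in WT-TRAMP and 96.2, 98.9 and 99.2 in KO-TRAMP, with hardly any spread among the KO-TRAMP libraries (log2 fold change −1.08, SE 0.14, adjusted p 0.234 by limma). On the higher side Bach2, a transcriptional repressor best known in lymphocytes and named here after its values were seen because its mean is low, had 9.62, 7.5 and 12.1 in WT-TRAMP and 55.7, 57.8 and 48.7 in KO-TRAMP (log2 fold change 2.38, SE 0.32, adjusted p 0.234 by limma). Arhgef40, a guanine nucleotide exchange factor, was at 253, 220.0 and 281 in WT-TRAMP and 390.2, 448 and 450.1 in KO-TRAMP (log2 fold change 0.78, SE 0.14, adjusted p 0.524 by limma).

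Traf3, an adaptor that restrains non-canonical NF-κB signalling, had 101, 108 and 196 in WT-TRAMP and 311, 294 and 295 in KO-TRAMP (log2 fold change 1.21, SE 0.25). Peli2, a ubiquitin ligase of Toll-like receptor signalling, had 49.8, 51.2 and 67.2 in WT-TRAMP and 101, 172 and 138 in KO-TRAMP (log2 fold change 1.25, SE 0.24). Jph2, a junctophilin that ties the plasma membrane to the ER or sarcoplasmic reticulum of muscle cells, had 39.4, 48.7 and 69.4 in WT-TRAMP and 102, 149 and 137 in KO-TRAMP (log2 fold change 1.30, SE 0.26). All 3 had a limma adjusted p of 0.574 and were called by DESeq2. Serpine2, an inhibitor of serine proteases, was at 35, 41.2 and 80.4 in WT-TRAMP and 105, 385 and 1353 in KO-TRAMP, where library 9 carried most of the difference (log2 fold change 2.94, SE 0.8, adjusted p 0.71 by limma). Gabrp, a GABA-A receptor subunit of epithelia, had 0.874, 48.7 and 73.8 in WT-TRAMP and 146, 139 and 239 in KO-TRAMP, and library 1 set its low end. St6galnac4, a sialyltransferase, had 259, 162 and 85.9 in WT-TRAMP and 80.9, 44.1 and 59.7 in KO-TRAMP, with little gap between library 3 and library 7.

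The RNAs whose release depends on ELAC2 in mitochondria overlapped between the groups. The table counts the mitochondrial mRNAs as 11 features, 2 of which cover the overlapping pairs Atp8 with Atp6 and Nd4l with Nd4. Of these 11, 5 had a log2 fold change above 0 and none lacked overlap, with a median of −0.01 (from −0.13 without library 3 to 0.11 without library 7). The 11 features took 1.63%, 1.59% and 1.29% of reads in WT-TRAMP and 1.33%, 1.41% and 1.62% in KO-TRAMP. mt-Co1, the catalytic subunit of complex IV and the message with the most reads, had 80671, 84025 and 68786 in WT-TRAMP and 65332, 62006 and 77448 in KO-TRAMP (log2 fold change −0.19, SE 0.15, adjusted p 0.85 by limma). Its library 9 value lay among those of WT-TRAMP. mt-Nd2, a complex I subunit, had 2642, 2396 and 1919 in WT-TRAMP and 1942, 3447 and 3007 in KO-TRAMP (log2 fold change 0.24, SE 0.22, adjusted p 0.875 by limma), and mt-Nd6, the message of the light strand, had 784, 682 and 528 in WT-TRAMP and 812, 903 and 602 in KO-TRAMP (log2 fold change 0.21, SE 0.19, adjusted p 0.876 by limma). These were the largest differences on the higher side of the list, and both overlapped between the groups.

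The 2 mitochondrial rRNAs varied most among the KO-TRAMP libraries. They took 4.35%, 3.92% and 3.35% of reads in WT-TRAMP and 2.42%, 4.82% and 3.61% in KO-TRAMP, with library 7 the lowest and library 8 the highest of all 6. The ratio of rRNA to mRNA reads was 2.68, 2.47 and 2.6 in WT-TRAMP and 1.82, 3.42 and 2.23 in KO-TRAMP. KO-TRAMP thus spanned both ends of that ratio, and its 3 libraries did not share a direction. The 22 mitochondrial tRNAs had at most 2 reads in total in any library, a class that libraries of this kind hardly capture. These gene-level counts therefore do not measure tRNA processing itself. The study assessed it from read coverage along the mitochondrial genome and reported processing defects in KO-TRAMP mice, which was not examined here.

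Nuclear genes of the same pathway had a median near 0. Among 31 genes that cut, modify or stabilise tRNAs and mitochondrial RNAs, 1 lay higher and 1 lower without overlap, with a median log2 fold change of −0.02. Polrmt, the mitochondrial RNA polymerase, had 168, 124 and 164 in WT-TRAMP and 185, 263 and 186 in KO-TRAMP (log2 fold change 0.47, SE 0.2, adjusted p 0.742 by limma). Fastkd3, an RNA-binding protein of mitochondria, had 171, 238 and 168 in WT-TRAMP and 150.1, 114 and 138 in KO-TRAMP (log2 fold change −0.51, SE 0.19, adjusted p 0.719 by limma). The gap between the groups was narrow for both. Of 75 nuclear subunits of oxidative phosphorylation, 20 had a log2 fold change above 0, 1 was higher and 2 were lower without overlap (5.77% and 6.26% of all genes were), and the median was −0.03. Without library 8 the median was 0.07 and 61 of the 75 were above 0, and without library 7 they were −0.13 and 8. Atp5d, a subunit of the catalytic head of ATP synthase, was the member on the higher side, at 487, 486 and 454 in WT-TRAMP and 551, 527 and 550.2 in KO-TRAMP (log2 fold change 0.19, SE 0.1, adjusted p 0.767 by limma).

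ER chaperones lay mostly on the higher side in KO-TRAMP. Of 32 measured genes of ER folding and the unfolded protein response, 27 had a log2 fold change above 0. In 12 of them every KO-TRAMP library lay above every WT-TRAMP library and in none below, against 5.77% and 6.26% of all genes. The median was 0.27, 15 had an unadjusted limma p under 0.05, none passed after adjustment, and DESeq2 called 6. Without each library in turn the median stayed between 0.21 and 0.31, and the number higher without overlap was 12 to 21 (12 without library 7 and 21 without library 8, when 11.6% and 10.9% of all genes were). The list and its members were chosen with earlier results of these data known.

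The promoters of 4 of these genes are shown because they carry the ER stress response element, the sequence through which ATF6 with NF-Y is known to switch on chaperone genes. All 4 genes lay higher in KO-TRAMP without overlap. The element was searched on both strands as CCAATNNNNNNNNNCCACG, 9 bases of any kind between its parts, in windows of 250 bases before to 50 after each gene's start (RefSeq, GRCm38.p6). Its first part is also the plain CCAAT box. Capitals mark the match, which reads as its reverse complement where it lies on the other strand. Hspa5 (chr2:34771840-34772139, plus strand), Hsp90b1 (chr10:86705395-86705694, minus strand), Creld2 (chr15:88819396-88819695, plus strand) and Calr (chr8:84846882-84847181, minus strand) read as follows.
Hspa5: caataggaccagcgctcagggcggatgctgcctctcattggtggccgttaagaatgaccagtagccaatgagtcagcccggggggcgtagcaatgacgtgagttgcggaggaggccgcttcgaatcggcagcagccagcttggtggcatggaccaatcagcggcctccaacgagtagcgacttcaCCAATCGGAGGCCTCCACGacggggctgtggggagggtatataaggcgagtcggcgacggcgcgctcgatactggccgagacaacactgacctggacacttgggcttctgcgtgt
Hsp90b1: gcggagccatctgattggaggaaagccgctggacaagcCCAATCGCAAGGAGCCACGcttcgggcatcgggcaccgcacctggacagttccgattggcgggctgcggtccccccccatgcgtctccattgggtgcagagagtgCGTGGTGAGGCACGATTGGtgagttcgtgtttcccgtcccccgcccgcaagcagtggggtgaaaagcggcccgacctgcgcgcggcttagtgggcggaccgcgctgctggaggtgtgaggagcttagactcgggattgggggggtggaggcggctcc
Creld2: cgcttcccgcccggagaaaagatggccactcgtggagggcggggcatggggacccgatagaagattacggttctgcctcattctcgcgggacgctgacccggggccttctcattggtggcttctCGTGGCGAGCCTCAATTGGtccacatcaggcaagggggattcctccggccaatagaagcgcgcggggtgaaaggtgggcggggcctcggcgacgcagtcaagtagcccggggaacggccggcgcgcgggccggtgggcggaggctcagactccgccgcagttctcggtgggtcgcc
Calr: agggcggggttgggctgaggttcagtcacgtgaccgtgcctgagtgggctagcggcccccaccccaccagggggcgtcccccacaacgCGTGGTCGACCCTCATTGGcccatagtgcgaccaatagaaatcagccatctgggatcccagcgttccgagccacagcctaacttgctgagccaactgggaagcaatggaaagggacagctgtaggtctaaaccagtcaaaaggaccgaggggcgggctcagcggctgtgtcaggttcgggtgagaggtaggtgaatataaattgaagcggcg

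Of the 32 genes 28 had a promoter entry, and 9 of these held the element (32.1%), against 37 of all 27025 genes with an entry (0.137%). The 9 with it had a median log2 fold change of 0.39 and 6 without overlap between the groups. The 19 without it had a median of 0.21 and 5 without overlap. Of all genes 12.0% lacked overlap. Canx, Dnajc3 and Syvn1 hold the element and overlapped between the groups, while Pdia3, Pdia4 and P4hb do not hold it and lay higher without overlap. A match is a description of the letters and shows neither binding nor a cause, and its absence says only that these letters are not in this window.

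Hspa5, the ER chaperone BiP, had normalized counts of 7666, 9248 and 10023 in WT-TRAMP and 15794, 10703 and 15103 in KO-TRAMP. All 3 KO-TRAMP libraries were higher, but library 8 exceeded library 3 only narrowly (log2 fold change 0.62, SE 0.17, adjusted p 0.711 by limma). Hsp90b1, the ER member of the Hsp90 family, had 8918, 9139.7 and 9557 in WT-TRAMP and 13529, 11505 and 12403 in KO-TRAMP, with a clear gap (log2 fold change 0.44, SE 0.1, adjusted p 0.659 by limma). Hyou1, a large Hsp70 relative that exchanges the nucleotide of BiP, was at 3687, 3843 and 4591 in WT-TRAMP and 6191, 5412 and 6052 in KO-TRAMP (log2 fold change 0.55, SE 0.11, adjusted p 0.574 by limma). Creld2, an ER protein with disulphide isomerase activity, had 561, 736 and 649 in WT-TRAMP and 1040.2, 822 and 1021 in KO-TRAMP (log2 fold change 0.57, SE 0.14, adjusted p 0.679 by limma). In each of these genes library 8 was the lowest KO-TRAMP library and library 7 the highest.

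The disulphide isomerases followed the same order of libraries. Pdia4 had 2724, 3089.5 and 3144 in WT-TRAMP and 5144, 3978 and 4505 in KO-TRAMP (log2 fold change 0.60, SE 0.12, adjusted p 0.574 by limma). P4hb, both an isomerase and a subunit of collagen prolyl hydroxylase, had 13938, 16581 and 17444 in WT-TRAMP and 28099, 22541 and 24500.3 in KO-TRAMP (log2 fold change 0.65, SE 0.13, adjusted p 0.574 by limma). Their DESeq2 adjusted p-values were 0.00167 and 0.000666. Pdia3 and Pdia6, which act on glycoproteins and on other clients, had log2 fold changes of 0.32 (SE 0.08) and 0.30 (SE 0.1), again without overlap. Calr, the lectin chaperone calreticulin, had 9407, 8646 and 8088 in WT-TRAMP and 13530.2, 9578 and 11331 in KO-TRAMP (log2 fold change 0.39, SE 0.14, adjusted p 0.716 by limma), where library 8 was barely above library 1. Sdf2l1, Derl3 and Sel1l, of which the latter pair serve ER-associated degradation, were the other 3 without overlap, with log2 fold changes of 0.46, 0.71 and 0.28.

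The sensors and transcription factors of the response named here all overlapped between the groups. Of them Ern1 came closest to the list median of 0.27. Xbp1, whose mRNA is spliced upon ER stress, had 2665, 2485 and 2771 in WT-TRAMP and 2794, 2468 and 2889 in KO-TRAMP (log2 fold change 0.04, SE 0.1, adjusted p 0.959 by limma), and a gene-level count does not see its splicing. Atf6 had a log2 fold change of 0.06 (SE 0.12), the kinase gene Ern1 of 0.21 (SE 0.13) and the kinase gene Eif2ak3 of −0.19 (SE 0.12). Ddit3, the stress factor CHOP and not a member of this list, had 60.3, 60 and 56.2 in WT-TRAMP and 55.7, 77.4 and 51.4 in KO-TRAMP, which overlapped fully. Dnajb9 and Herpud1, targets of the same pathways, were at 0.02 and −0.12. These genes outside the naming rule were chosen after their values were seen.

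**Figure D3:**
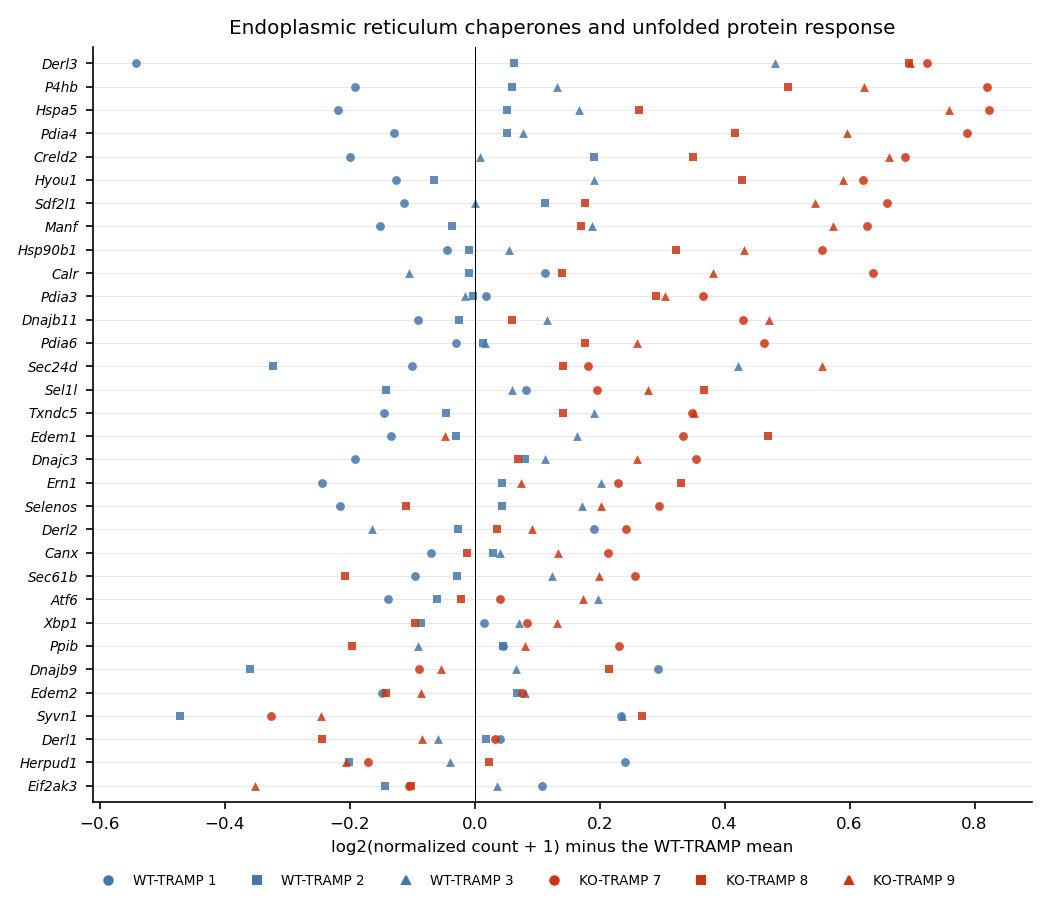
Values of each measured gene of the ER chaperone list in the 6 libraries, drawn relative to the WT-TRAMP mean on a log2 axis (horizontal), 1 row per gene. Points of KO-TRAMP lie right of those of WT-TRAMP for Pdia4, P4hb, Hyou1 and Hsp90b1 and are mixed with them for Xbp1, Atf6 and Herpud1.

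The neighbouring ATF4 list, the amino acid branch of the integrated stress response, was less uniform. Of 27 genes 5 lay higher and 1 lower without overlap, against 5.77% and 6.26% of all genes, with 16 above 0 and a median of 0.08 (from 0.01 without library 3 to 0.18 without library 8). Slc7a5, the light chain of a transporter of large neutral amino acids, had 105, 261 and 308 in WT-TRAMP and 390.2, 436 and 486 in KO-TRAMP (log2 fold change 1.09, SE 0.36, adjusted p 0.716 by limma). Slc3a2, the heavy chain of the same transporter, had 739.7, 757 and 810.5 in WT-TRAMP and 659.9, 703 and 675 in KO-TRAMP (log2 fold change −0.18, SE 0.09, adjusted p 0.777 by limma) and lay on the other side. Cth, which makes cysteine from cystathionine, had 59.5, 23.8 and 63.9 in WT-TRAMP and 96.2, 70.5 and 90 in KO-TRAMP (log2 fold change 0.90, SE 0.38, adjusted p 0.742 by limma), and Psat1, an enzyme of serine synthesis, had 214, 244 and 237 in WT-TRAMP and 289, 246 and 351 in KO-TRAMP (log2 fold change 0.34, SE 0.16, adjusted p 0.749 by limma). In Psat1, library 8 exceeded library 2 by only a few counts.

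The secretory message with the most reads lay lower in KO-TRAMP. Sbp, the spermine-binding protein of the mouse ventral prostate (chr17:23941672-23945607, GRCm38), had 258144, 302849.8 and 224677 in WT-TRAMP and 123562, 111923 and 117956 in KO-TRAMP. Every KO-TRAMP library was far below every WT-TRAMP library (log2 fold change −1.14, SE 0.17, adjusted p 0.276 by limma, DESeq2 adjusted p 9.27e-15, edgeR adjusted p 0.159). It took 2.25%, 2.58% and 1.91% of all reads in WT-TRAMP and 1.12%, 0.984% and 1.07% in KO-TRAMP. Leaving out each library in turn gave log2 fold changes from −1.25 to −1.03. Its neighbour Sbpl, 7476 bases away, had 95.3, 93.7 and 69.4 in WT-TRAMP and 27, 40.1 and 30.3 in KO-TRAMP (log2 fold change −1.39, SE 0.25, adjusted p 0.574 by limma). Of its 31-base words 48.1% occur in Sbp, so that the split of reads between the 2 genes is uncertain.

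Other secretory products divided by direction. Spink1, a trypsin inhibitor of seminal secretions, had 28942, 30384 and 16734 in WT-TRAMP and 9798, 11626 and 8048 in KO-TRAMP (log2 fold change −1.33, SE 0.24, adjusted p 0.574 by limma), with no overlap and the smallest gap at library 3. Pigr, the receptor that carries IgA across epithelia, had 22461, 23848 and 12839 in WT-TRAMP and 11652, 10135 and 12054 in KO-TRAMP (log2 fold change −0.76, SE 0.23, adjusted p 0.716 by limma), and Crabp1, a retinoic acid binding protein, had 2134, 1348 and 739 in WT-TRAMP and 682, 425 and 735 in KO-TRAMP (log2 fold change −1.10, SE 0.37, adjusted p 0.716 by limma). For both, library 3 was close to the KO-TRAMP range. Spink8, another inhibitor of the same family, was instead higher, at 21.9, 55 and 120.0 in WT-TRAMP and 209.5, 146 and 346 in KO-TRAMP (log2 fold change 2.04, SE 0.57, adjusted p 0.716 by limma). Wfdc15b, a whey acidic protein domain gene, had 0, 0 and 4.41 in WT-TRAMP and 9.89, 52.9 and 124 in KO-TRAMP (log2 fold change 4.58, SE 1.06, adjusted p 0.659 by limma). Its highest values were in libraries 8 and 9, those with the most RNA of seminal vesicle genes.

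In all, 3 of 20 measured secretory genes lay higher and 5 lower without overlap (5.77% and 6.26% of all genes did), DESeq2 called 1 higher and 5 lower, 12 had a log2 fold change above 0, and the median was 0.51. Library 1 decided much of that positive median. Msmb, a secreted microseminoprotein, had 144, 2588 and 7052 in WT-TRAMP and 7416, 5833 and 5045 in KO-TRAMP (log2 fold change 2.12, SE 1.2, adjusted p 0.789 by limma), where libraries 1 and 2 lay below the KO-TRAMP range and library 3 within it. Defb50, a prostate defensin, had 639, 2918 and 4586 in WT-TRAMP and 6451, 4584 and 4453 in KO-TRAMP (log2 fold change 1.31, SE 0.63, adjusted p 0.756 by limma). Mmp7, a matrix metalloprotease of glandular epithelium, had 42, 539 and 1114 in WT-TRAMP and 2544, 1332 and 1455 in KO-TRAMP, where library 1 was again lowest. Without library 1 the median over the 20 genes was 0.16, and 3 lay higher and 6 lower without overlap. Other members varied even more within KO-TRAMP. Tgm4, the prostate transglutaminase, had 310.4, 68.7 and 623 in WT-TRAMP and 28.8, 4605 and 452 in KO-TRAMP, and 9530053A07Rik had 5389, 777 and 5495 in WT-TRAMP and 71.9, 28168 and 2608 in KO-TRAMP, with libraries 7 and 8 at the opposite ends of both.

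**Figure D4:**
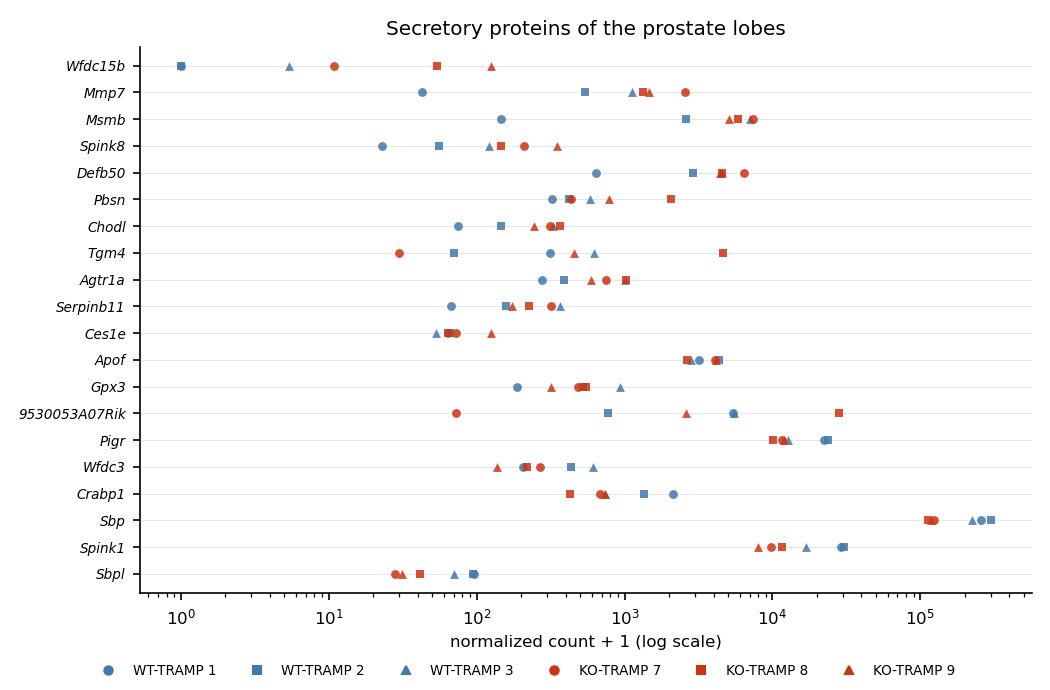
Normalized counts + 1 of the measured secretory genes of the prostate lobes in the 6 libraries on a log axis (horizontal), 1 row per gene, with WT-TRAMP and KO-TRAMP in different colours. The groups separate for Sbp, Spink1 and Sbpl, library 1 is apart for Msmb, and libraries 7 and 8 are apart for Tgm4.

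Seminal vesicle genes gave some of the largest fold changes of the comparison, as far as 3 such libraries can set them. Svs2, a major protein of the copulatory plug, had 3.5, 1.25 and 8.81 in WT-TRAMP and 36, 847 and 104018 in KO-TRAMP (log2 fold change 8.32, SE 2.4, adjusted p 0.716 by limma). Svs5 had 5.25, 8.75 and 14.3 in WT-TRAMP and 30.6, 2322 and 43122 in KO-TRAMP (log2 fold change 7.23, SE 2.16, adjusted p 0.716 by limma), and Pate4, a further secreted protein of the vesicle, had 3.5, 1.25 and 1.1 in WT-TRAMP and 7.19, 560.2 and 22246 in KO-TRAMP (log2 fold change 7.40, SE 2.36, adjusted p 0.716 by limma). The 3 KO-TRAMP libraries differed from each other by orders of magnitude, with library 7 close to WT-TRAMP and library 9 at the top. All 8 measured markers of the gland had a log2 fold change above 0, and 4 lay higher without overlap, against 5.77% of all genes. Their median was 4.77, from 2.84 without library 9 to 6.94 without library 7. The gland adjoins the lobes at dissection, and its part in other differences of libraries 8 and 9 was not tested.

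Smooth muscle genes were higher in KO-TRAMP as a group, with 16 of 16 above 0. Of these, 8 lacked overlap, 12 had an unadjusted limma p under 0.05, none passed after adjustment, and DESeq2 called 3. Of all genes 5.77%, 3.71% and 0.272% did so on the higher side. The number without overlap was 8 with library 1, 8 or 9 left out, and 14, 10 and 15 with library 2, 3 or 7 left out, when 9.2% to 13.8% of all genes lay higher. The median log2 fold change was 0.82, from 0.61 without library 1 to 1.11 without library 7. Acta2, smooth muscle actin, had 1092, 1669.7 and 1388 in WT-TRAMP and 1979, 2335 and 2766 in KO-TRAMP (log2 fold change 0.78, SE 0.18, adjusted p 0.659 by limma). Tagln, the actin-binding protein transgelin, had 859.5, 1066 and 1028 in WT-TRAMP and 1329.7, 1673 and 1595 in KO-TRAMP (log2 fold change 0.64, SE 0.13, adjusted p 0.574 by limma), and Actg2, the enteric smooth muscle actin, had 72.6, 124 and 113 in WT-TRAMP and 174, 279 and 378 in KO-TRAMP (log2 fold change 1.38, SE 0.31, adjusted p 0.659 by limma). Library 1 was the lowest in each of the 3 genes, and the mean log2 level of the whole list was 8.19, 8.94 and 8.8 in WT-TRAMP and 9.06, 9.71 and 9.63 in KO-TRAMP. The highest levels were thus in libraries 8 and 9, which also held the most RNA of seminal vesicle genes. The part of seminal vesicle tissue in this difference was not tested. Myh11, the smooth muscle myosin heavy chain, had 1956, 3402 and 3238 in WT-TRAMP and 3354, 6742 and 5107 in KO-TRAMP (log2 fold change 0.81, SE 0.29, adjusted p 0.716 by limma), where library 7 overlapped with WT-TRAMP. Smooth muscle is not a cell type in which the probasin promoter is known to be active. The CArG box, the site of serum response factor in muscle promoters, was found in 1 of the 13 genes of the list with a promoter entry, against 1.81% of all genes.

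Fibroblast and endothelial lists also had positive medians. The median log2 fold change was 0.36 over 10 fibroblast genes, of which 9 were above 0, and 0.46 over 15 endothelial genes, of which 14 were. The mean log2 level was 6.71, 7.05 and 7.08 in WT-TRAMP and 6.81, 7.54 and 7.71 in KO-TRAMP for the fibroblast list, and 4.51, 4.6 and 4.28 in WT-TRAMP and 4.3, 5.22 and 5.43 in KO-TRAMP for the endothelial one. In both, library 7 lay within the WT-TRAMP range, and libraries 8 and 9, with the most RNA of seminal vesicle genes, were highest. The fibroblast median ran from 0.27 without library 9 to 0.58 without library 7, and the endothelial one from 0.22 without library 9 to 0.81 without library 7. Without library 7, 4 fibroblast and 11 endothelial genes lay higher without overlap, when 11.6% of all genes did. With all libraries 1 and 2 lay higher, when 5.77% of all genes did. Luminal epithelial genes (11) had a median of −0.14 (from −0.20 without library 3 to −0.08 without library 8). Basal ones (9) had a median of −0.09 (from −0.47 without library 9 to 0.01 without library 1). Krt8, the luminal keratin, had 4551, 4689 and 4180.1 in WT-TRAMP and 4424, 3550.0 and 4217 in KO-TRAMP (log2 fold change −0.14, SE 0.11, adjusted p 0.85 by limma), and its partner Krt18 had 5976, 7615 and 7491 in WT-TRAMP and 6785, 5832 and 6766 in KO-TRAMP (log2 fold change −0.12, SE 0.12, adjusted p 0.894 by limma). Both keratins overlapped between the groups. Macrophage genes were at 0.08, T and NK cell genes at −0.05 and B and plasma cell genes at −0.28. Of 14 macrophage genes 1 lay higher and 0 lower without overlap. Of 9 T and NK cell genes these were 1 and 2, and of 6 B and plasma cell genes 1 and 0. Of all genes 5.77% lay higher and 6.26% lower. The macrophage median ran from −0.10 without library 9 to 0.29 without library 8. The T and NK cell median ran from −0.17 without library 9 to 0.02 without library 2. The B and plasma cell median ran from −0.62 without library 8 to 0.05 without library 2.

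Of 49 collagen and fibrillar matrix genes, 42 had a log2 fold change above 0, 8 lay higher and 1 lower without overlap, against 5.77% and 6.26% of all genes, and the median was 0.28. The lower one was Cercam. The mean log2 level of the list was 7.04, 7.25 and 6.97 in WT-TRAMP and 6.98, 7.59 and 7.6 in KO-TRAMP. Library 7 thus lay within the WT-TRAMP range, and libraries 8 and 9, with the most RNA of seminal vesicle genes, were highest. The median ran from 0.20 without library 9 to 0.47 without library 7. Without library 7, 27 lay higher without overlap, when 11.6% of all genes did. The number was 10 without library 1, 14 without library 2 and 8 without library 3, 8 or 9, when 9.2% to 13.8% of all genes did. Postn, a matrix protein of active fibroblasts, had 74.3, 108 and 106 in WT-TRAMP and 130.4, 193 and 184 in KO-TRAMP (log2 fold change 0.81, SE 0.22, adjusted p 0.71 by limma). Fn1, fibronectin, had 476, 814 and 641 in WT-TRAMP and 835, 1048 and 933 in KO-TRAMP (log2 fold change 0.57, SE 0.19, adjusted p 0.716 by limma), and Eln, elastin, had 46.3, 47.5 and 35.2 in WT-TRAMP and 48.5, 124 and 182 in KO-TRAMP (log2 fold change 1.26, SE 0.45, adjusted p 0.716 by limma). In elastin, library 7 was hardly above library 2. Col3a1, a main fibrillar collagen, overlapped at 1439, 1249.8 and 746 in WT-TRAMP and 1028, 1632 and 1658 in KO-TRAMP (log2 fold change 0.35, SE 0.27, adjusted p 0.851 by limma). Col6a3, the member with the most reads, pointed the other way at 29925, 19224 and 8034 in WT-TRAMP and 8584, 5335 and 11739.9 in KO-TRAMP (log2 fold change −1.03, SE 0.47, adjusted p 0.743 by limma), from a wide spread within WT-TRAMP. Among proteases and their inhibitors 4 of 18 lay higher and 0 lower without overlap, against 5.77% and 6.26% of all genes. Their median was 0.20, from 0.14 without library 9 to 0.45 without library 7. Leaving out each library in turn gave 4 to 7 higher without overlap, when 9.2% to 13.8% of all genes did. Timp3, an inhibitor bound to matrix, was among the 4, at 239.6, 366 and 327 in WT-TRAMP and 369, 571 and 596 in KO-TRAMP (log2 fold change 0.71, SE 0.23, adjusted p 0.716 by limma).

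Growth factor genes held receptors on both sides. Of 29 genes of the IGF and TGF-β axis 4 lay higher and 1 lower without overlap, against 5.77% and 6.26% of all genes, with a median of 0.26. That median was 0.10 without library 1 and 0.05 at a minimum mean of 50. Tgfbr2, the receptor kinase that binds TGF-β ligand, had 2299, 2205 and 1782 in WT-TRAMP and 1575, 1474 and 1395 in KO-TRAMP and was called by DESeq2 (log2 fold change −0.49, SE 0.12, adjusted p 0.659 by limma). Tgfbr3, a co-receptor, had 629, 936 and 1080.3 in WT-TRAMP and 1249, 1257 and 1088 in KO-TRAMP (log2 fold change 0.48, SE 0.19, adjusted p 0.735 by limma), Igfbp7, a secreted binding protein, had 156, 151 and 123 in WT-TRAMP and 164, 205 and 313 in KO-TRAMP (log2 fold change 0.62, SE 0.24, adjusted p 0.734 by limma), and Bmp4, a ligand made by stroma, had 7.87, 13.8 and 16.5 in WT-TRAMP and 25.2, 19.6 and 34 in KO-TRAMP (log2 fold change 1.01, SE 0.42, adjusted p 0.739 by limma). Of 25 genes of the ErbB list 2 lay higher and 2 lower without overlap, against 5.77% and 6.26% of all genes. The receptors Erbb2 and Erbb4 were the lower ones. Erbb2 had 1668, 1898 and 1618 in WT-TRAMP and 1329, 1542 and 1229 in KO-TRAMP (log2 fold change −0.34, SE 0.12, adjusted p 0.716 by limma). Erbb4 had 1718, 1375 and 1264 in WT-TRAMP and 1095, 1151 and 1098 in KO-TRAMP (log2 fold change −0.37, SE 0.13, adjusted p 0.716 by limma). Met, the receptor of hepatocyte growth factor, lay higher at 769, 866 and 751 in WT-TRAMP and 992, 968 and 947 in KO-TRAMP (log2 fold change 0.29, SE 0.1, adjusted p 0.716 by limma). Nrg4, a ligand of Erbb4, was close to 0 in WT-TRAMP, at 0, 7.5 and 3.3, and had 21.6, 21.5 and 24.8 in KO-TRAMP (log2 fold change 2.83, SE 0.81, adjusted p 0.716 by limma). The median of the ErbB list was 0.24, but 0.05 with array weights, 0.10 without library 1 and 0.13 without library 9.

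Psca, a surface antigen of prostate and urothelium, had 25.4, 27.5 and 25.3 in WT-TRAMP and 29.7, 73.5 and 91.8 in KO-TRAMP (log2 fold change 1.14, SE 0.41, adjusted p 0.716 by limma) and did not overlap between the groups. The higher values of Psca were in libraries 8 and 9, and library 7 was close to WT-TRAMP.

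Mitotic genes lay mostly on the lower side in KO-TRAMP, while the median of S phase genes was near 0. Of 36 genes of mitosis and the spindle 2 had a log2 fold change above 0, 5 lay lower without overlap and none higher, against 6.26% and 5.77% of all genes, and the median was −0.36. Tpx2, which activates Aurora A on the spindle, had 649, 482 and 480.1 in WT-TRAMP and 339, 348 and 304 in KO-TRAMP (log2 fold change −0.69, SE 0.15, adjusted p 0.624 by limma, called by DESeq2). Foxm1, a transcription factor of the G2/M genes, had 340.1, 294 and 272 in WT-TRAMP and 214, 241 and 123 in KO-TRAMP (log2 fold change −0.70, SE 0.25, adjusted p 0.716 by limma), and Cdc20, an activator of the anaphase-promoting complex, had 359, 264 and 218 in WT-TRAMP and 218, 116 and 174 in KO-TRAMP (log2 fold change −0.74, SE 0.26, adjusted p 0.716 by limma). In Cdc20, libraries 3 and 7 were nearly equal. Mki67, the proliferation marker, overlapped at 5860.1, 4569 and 4353 in WT-TRAMP and 5249, 3992 and 3784 in KO-TRAMP (log2 fold change −0.19, SE 0.16, adjusted p 0.872 by limma), as did Top2a at 3312, 2673 and 2015 in WT-TRAMP and 2485, 1825 and 2194 in KO-TRAMP (log2 fold change −0.28, SE 0.19, adjusted p 0.83 by limma). The mean log2 level of the list was 8.89, 8.37 and 8.21 in WT-TRAMP and 8.4, 7.93 and 8.06 in KO-TRAMP, highest in library 1. The median ran from −0.53 without library 7 to −0.15 without library 1. The 5 genes lower at an unadjusted limma p under 0.05 came to 1 without library 1. Without library 1, 2, 8 or 9, 5, 6, 5 and 5 of the 36 lay lower without overlap, when 10.2% to 11.1% of all genes did. The number was 17 without library 3 and 19 without library 7, when 15.1% and 12.0% of all genes were. In the S phase list 26 of 35 genes were above 0, with a median of 0.07. Without library 7 these were 10 of 35 and −0.04, and without library 3 they were 15 and −0.03. Its member E2f7, an atypical E2F repressor, lay higher at 101, 86.2 and 82.6 in WT-TRAMP and 152, 163 and 123 in KO-TRAMP (log2 fold change 0.69, SE 0.18, adjusted p 0.695 by limma).

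Interferon-stimulated genes, the antiviral program that type I and II interferons switch on, lay lower on the whole. Of 48 measured genes 2 had a log2 fold change above 0, 3 lay lower and none higher without overlap, against 6.26% and 5.77% of all genes, and the median was −0.44. The list mean was 9.47, 9.17 and 8.38 in WT-TRAMP and 8.84, 8.2 and 8.67 in KO-TRAMP on the log2 scale, where library 3 of WT-TRAMP fell inside the KO-TRAMP range. Without library 3 the median was −0.72 and 44 of 48 lay lower without overlap, when 15.1% of all genes did. Without library 1 the median was −0.19 and 3 lay lower (6.25%), when 10.2% of all genes did. Leaving out library 2, 7, 8 or 9 instead gave medians of −0.30, −0.53, −0.20 and −0.52.

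The promoters of Rsad2 and Cxcl10 are shown because both genes lay lower without overlap and hold the core of the interferon-stimulated response element, to which STAT and IRF factors are known to bind. The core was searched on both strands as GAAANNGAAA, with capitals at the match, in the same windows (RefSeq, GRCm38.p6). They lie at chr12:26456403-26456702, minus strand, and chr5:92348840-92349139, minus strand.
Rsad2: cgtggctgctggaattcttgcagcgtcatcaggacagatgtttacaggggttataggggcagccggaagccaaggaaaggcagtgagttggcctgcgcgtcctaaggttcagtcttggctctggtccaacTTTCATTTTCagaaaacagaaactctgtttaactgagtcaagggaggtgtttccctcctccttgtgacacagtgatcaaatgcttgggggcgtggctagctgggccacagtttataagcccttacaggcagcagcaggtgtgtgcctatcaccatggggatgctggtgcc
Cxcl10: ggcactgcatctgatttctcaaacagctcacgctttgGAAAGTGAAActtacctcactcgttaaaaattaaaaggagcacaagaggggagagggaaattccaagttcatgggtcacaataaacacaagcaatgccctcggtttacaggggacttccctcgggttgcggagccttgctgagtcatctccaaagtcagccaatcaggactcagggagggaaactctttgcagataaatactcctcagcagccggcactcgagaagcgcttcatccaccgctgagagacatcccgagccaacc

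The core was in 20 of the 35 genes of the list with an entry (57.1%) and in 3.99% of all genes. The median log2 fold change was −0.44 for the 20 and −0.32 for the other 15. Of the 20 with the core 2 lacked overlap, and of the 15 without it 1 did, against 12.0% of all genes. Rsad2, the antiviral enzyme viperin, had 2423, 1648 and 1245 in WT-TRAMP and 1011, 944 and 724 in KO-TRAMP (log2 fold change −0.95, SE 0.24, adjusted p 0.679 by limma, called by DESeq2). Cxcl10, a chemokine for T cells, had 445, 234 and 182 in WT-TRAMP and 138, 98.9 and 138 in KO-TRAMP (log2 fold change −1.10, SE 0.32, adjusted p 0.716 by limma). Irf1, a transcription factor induced by interferon, had 800.1, 797 and 677 in WT-TRAMP and 652, 516 and 676 in KO-TRAMP (log2 fold change −0.31, SE 0.14, adjusted p 0.742 by limma), and libraries 3 and 9 were almost equal. Antigen presentation genes (25) had a median of −0.18 with none lacking overlap. Without library 3 the median was −0.38 and 12 lay lower without overlap, when 15.1% of all genes did, and the median was −0.03 without library 1 or 2 and −0.04 without library 8. B2m, the light chain of MHC class I, had 15414, 18683 and 11049 in WT-TRAMP and 15147, 11622 and 18486 in KO-TRAMP, which overlapped.

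The complement and acute phase list had a median of −0.02 over 21 genes (from −0.15 without library 3 to 0.05 without library 2). In it 1 gene lay higher and 1 lower without overlap, against 5.77% and 6.26% of all genes. Clu, the secreted chaperone clusterin, had 2974, 4117 and 5490.5 in WT-TRAMP and 6099, 6938 and 7586 in KO-TRAMP (log2 fold change 0.75, SE 0.21, adjusted p 0.71 by limma). Lrg1, an acute phase glycoprotein, had 51.6, 31.2 and 62.8 in WT-TRAMP and 19.8, 13.7 and 17.4 in KO-TRAMP (log2 fold change −1.42, SE 0.35, adjusted p 0.659 by limma). Both were without overlap, and library 1 was the lowest of all in Clu.

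Metabolic lists had medians near 0 with separate genes at their edges. Mat2a, which makes S-adenosylmethionine, the donor for polyamine synthesis and methylation, had 15515, 12230.5 and 7762 in WT-TRAMP and 6292, 5137 and 5784 in KO-TRAMP (log2 fold change −0.99, SE 0.23, adjusted p 0.659 by limma, DESeq2 adjusted p 0.00112). All KO-TRAMP libraries were lower, and WT-TRAMP had the wider spread. Odc1, the first enzyme of polyamine synthesis, overlapped at 2011, 1841 and 2116 in WT-TRAMP and 2427, 1879 and 2129.9 in KO-TRAMP. The polyamine list (17 genes) had 2 higher and 2 lower without overlap, against 5.77% and 6.26% of all genes. Its median was −0.10 (from −0.18 without library 2 to −0.07 without library 8). Srebf1, a transcription factor of lipid synthesis, had 1727, 1224 and 1350.0 in WT-TRAMP and 2578, 1874 and 2247 in KO-TRAMP (log2 fold change 0.64, SE 0.16, adjusted p 0.683 by limma, called by DESeq2). Fads2, a fatty acid desaturase, had 119.8, 121 and 296 in WT-TRAMP and 338, 422 and 392 in KO-TRAMP (log2 fold change 1.23, SE 0.33, adjusted p 0.71 by limma), and Elovl5, an elongase of the same products, had 432, 405 and 436 in WT-TRAMP and 507, 487 and 567 in KO-TRAMP (log2 fold change 0.29, SE 0.11, adjusted p 0.719 by limma). The sterol and fatty acid list had 9 of 32 genes above 0 and a median of −0.11. In it 4 lay higher and 2 lower without overlap, against 5.77% and 6.26% of all genes. Without library 1, 23 were above 0, the median was 0.15 and 7 lay higher without overlap, when 9.2% of all genes did.

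Gpx2, an epithelial glutathione peroxidase, had 43.7, 48.7 and 34.1 in WT-TRAMP and 13.5, 20.6 and 23 in KO-TRAMP (log2 fold change −1.13, SE 0.32, adjusted p 0.716 by limma). It was the only one of 28 antioxidant genes lower without overlap, beside 3 higher, against 6.26% and 5.77% of all genes. The median of that list was −0.03 (from −0.08 without library 3 to 0.07 without library 8). Slc25a10, the mitochondrial dicarboxylate carrier, had 576, 544 and 465 in WT-TRAMP and 930.5, 843 and 738 in KO-TRAMP (log2 fold change 0.66, SE 0.13, adjusted p 0.574 by limma). Glycolysis and hypoxia genes (31) had a median of −0.11 with 1 lower without overlap, against 6.26% of all genes. Immediate early genes (25) had a median of −0.12 with 1 higher, against 5.77%. These medians ran from −0.21 without library 3 to 0.02 without library 1 and from −0.24 without library 1 to 0.07 without library 2.

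**Figure D5:**
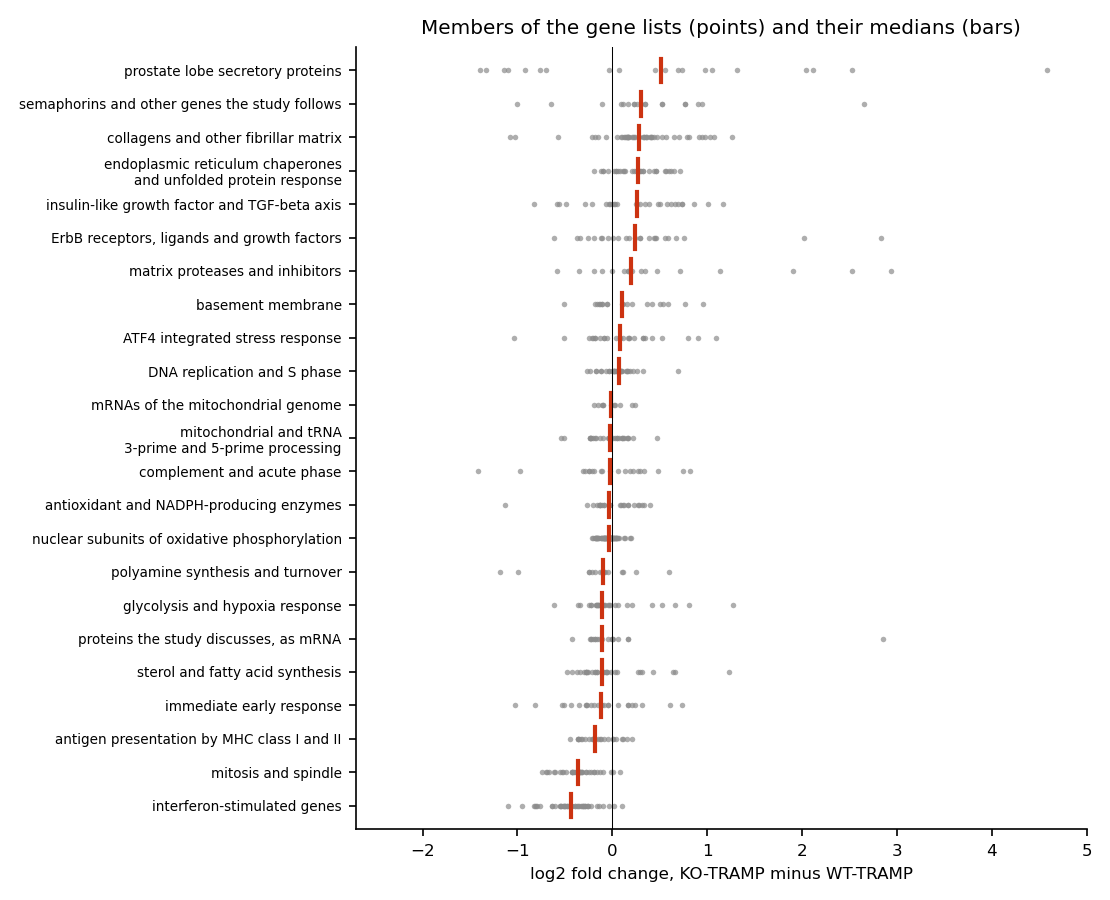
Log2 fold changes (horizontal axis) of the members of 23 gene lists (points, 1 row per list) with the list medians (bars). Medians run from −0.44 for interferon-stimulated genes to 0.51 for secretory proteins, with 0.27 for ER chaperones and −0.01 for the mitochondrial mRNAs.

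Semaphorins and related genes that the study follows were at a median of 0.30 (from 0.22 without library 8 to 0.43 without library 7), with 16 of 19 above 0. The study chose these genes in part on this series, so that their direction is not independent evidence. Sema5a, a transmembrane semaphorin, had 243, 309.9 and 334 in WT-TRAMP and 374, 729 and 606 in KO-TRAMP (log2 fold change 0.90, SE 0.25, adjusted p 0.71 by limma, called by DESeq2). Sema3a, a secreted repellent of axons, had 55.1, 47.5 and 39.6 in WT-TRAMP and 20.7, 25.5 and 23 in KO-TRAMP (log2 fold change −1.0, SE 0.27, adjusted p 0.71 by limma) and lay lower. Cdo1, cysteine dioxygenase, had 48.1, 131 and 320.4 in WT-TRAMP and 408, 398 and 3188 in KO-TRAMP (log2 fold change 2.65, SE 0.9, adjusted p 0.716 by limma), with library 9 well above the other KO-TRAMP libraries. Of 19 proteins that the study discusses, measured here as mRNA, none lay higher and 3 lower without overlap (5.77% and 6.26% of all genes did), with a median of −0.11 (from −0.18 without library 3 to −0.03 without library 8). Cdh1, E-cadherin, had 8017, 6861 and 6805 in WT-TRAMP and 6464, 6195 and 6662 in KO-TRAMP (log2 fold change −0.16, SE 0.1, adjusted p 0.805 by limma). Mcl1, an anti-apoptotic protein, had 1742, 1769.7 and 1758 in WT-TRAMP and 1611, 1495 and 1556 in KO-TRAMP (log2 fold change −0.18, SE 0.08, adjusted p 0.756 by limma), and Prkaa1, a catalytic subunit of AMP-activated kinase, had 808, 722 and 665 in WT-TRAMP and 646, 599 and 623 in KO-TRAMP (log2 fold change −0.23, SE 0.11, adjusted p 0.756 by limma). These 3 differences were small next to those of the secretory genes.

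Of the 83 genes that DESeq2 called, 15 had another called gene within 100 kb. On chromosome 11, Slc25a10 (chr11:120491840-120499187), Mcrip1 (chr11:120542888-120549727) and P4hb (chr11:120560298-120573253) follow each other, with log2 fold changes of 0.66, −0.90 and 0.65. Mcrip1, a regulator of the co-repressor CtBP, had 231, 244 and 265 in WT-TRAMP and 148, 122 and 124 in KO-TRAMP (log2 fold change −0.90, SE 0.14, adjusted p 0.367 by limma) and so lay on the opposite side of its neighbours. On chromosome 15, Sema5a lies 147 bases from the noncoding RNA Snhg18, which had a log2 fold change of 1.20. The 2 genes Sbp and Sbpl on chromosome 17 and Svs4 and Svs5 on chromosome 2 belong to gene families already described. Tmem254b and Tmem254c, among the genes with the smallest p on the lower side, share all their 31-base words with Tmem254a and are therefore uncertain, with log2 fold changes of −1.29 and −1.68.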

How the data were processed

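Total RNA of 6 prostate samples was analysed. Per the submitters' processing notes and the study's methods, reads were trimmed with Trim Galore 0.4.1 and cutadapt 1.18, aligned with STAR 2.7.3a to GRCm38 and quantified on GENCODE genes with Salmon, and DESeq2 1.26 gave size factors. The authors deposited normalized counts, a signal made by dividing each library's estimated read counts by its size factor. In 100% of values above 0, dividing by the library's smallest step gave a whole read number (tolerance 0.001). The authors' tables of their own comparisons (shrunken log2 fold changes, posterior SDs and s-values) were not used. The table for the knockout at this age was used alone. Its columns carry only a library number; the 3 that also stand in the table of the other mutant line of that age were taken as WT-TRAMP.

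The test was limma 3.58.1 (eBayes with trend, R 4.3.3) on log2(normalized count + 1), a scale that understates the change of low genes, over genes with a mean of at least 10. Adjustment was by Benjamini-Hochberg over all 15451 genes at a threshold of 0.05. On the recovered reads edgeR 4.0.16 (quasi-likelihood) called 0 genes, with 1068 at an unadjusted p under 0.05, and DESeq2 1.42.0 called 83. DESeq2 gave no adjusted p for 1543 genes. All 3 tests were tested on simulated data.

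A total of 24 gene lists and 15 cell type lists were described by counts and medians. The members and lists were chosen with earlier results of these data known. Genes were named by a fixed rule. It took Elac2, all genes past the threshold, and in each direction the 8 smallest p and the 5 largest changes at an unadjusted p under 0.05 among protein-coding genes without overlap and with a mean of at least 50. It further took in each gene list the 2 members with the highest mean and up to 4 without overlap with the smallest p, in each cell type list 2 defining markers and up to 2 without overlap, the 5 largest edgeR calls per direction, of which there were none, and the proteins the study discusses. Clone names and antigen receptor segments were left out, except for genes past the threshold. Not all of these are printed, and 1 of the 24 gene lists is not reported here. Members of a list given beyond this rule were chosen after their values were seen. Coordinates are GRCm38 from the supplied GENCODE annotation, whose release may differ from the authors', and promoters are from RefSeq (GRCm38.p6). Shared sequence is the percentage of a gene's 31-base words found in another gene. Depth was 9380174 to 13094183 reads per library; no intervals were computed because all comparisons rest on replicates.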

Additional observations from a re-analysis of the deposited data

How the results depend on the processing

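The number of genes past the threshold was 2 with pseudocounts of 0.5 and 5, without the filter on low values and with TMM scaling. It was 0 with a minimum mean of 50, where 2210418O10Rik and Gm26444 were still tested and 795 of 11786 genes had an unadjusted limma p under 0.05 (smallest adjusted p 0.0516). It was 0 with edgeR's quasi-likelihood test (1068 at an unadjusted p under 0.05, smallest adjusted p 0.0519) and 83 with DESeq2. Leaving out each library in turn gave 1 to 9 genes, 9 without library 3 of WT-TRAMP and 1 without library 8 or library 9 of KO-TRAMP. The cause of these differences was not tested. Over the alternatives 1721 recomputed fold changes of named genes kept their direction and their side of the adjusted threshold, 16 changed sign, 47 came to pass it and 8, all of 2210418O10Rik and Gm26444, no longer did. Sign changes were found in 8 genes. Leaving out each library in turn gave log2 fold changes of −0.01 to 0.11 for Xbp1, −0.01 to 0.16 for Atf6, −0.13 to 0.16 for Ddit3, −0.16 to 0.17 for Dnajb9, −0.22 to 0.00 for Herpud1, −1.04 to 2.60 for Tgm4, −2.71 to 1.59 for 9530053A07Rik and −0.20 to 0.19 for B2m. Ddit3 was also at −0.06 with array weights, and 9530053A07Rik at 1.41 by edgeR and 1.42 by DESeq2. Traf3, Spink1 and Fads2 came to pass the adjusted threshold without library 3 (limma adjusted p 0.0452 each). Of the list medians 540 moved by less than their spread and 5 by more, and none was had for T and NK cell genes at a minimum mean of 50, which none of them reached. Counts of list members without each library were added after seeing the data. No paired analysis was possible because the column headers carry no replicate number. With 3 libraries per group, differences of less than about the spread between mice were not detectable, and genes at counts near 10 rest on few reads.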

Other observations

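Families outside the lists above were looked at after the values were seen. Among 23 measured zinc transporters and metallothioneins, a family of note in a gland that secretes zinc, 2 lay higher and 4 lower in KO-TRAMP without overlap. Of all genes 5.77% and 6.26% did so. The median log2 fold change was −0.08, 8 of the 23 were above 0, and the values ran from −0.77 to 1.93. The metallothioneins Mt1 and Mt2, which bind zinc and are induced by it, lie 5513 bases apart on chromosome 8 and were both called by DESeq2. Mt1 had normalized counts of 689, 619 and 729 in WT-TRAMP and 468, 479 and 474 in KO-TRAMP (log2 fold change −0.51, SE 0.1, adjusted p 0.574 by limma). Mt2 had 517, 465 and 393 in WT-TRAMP and 238, 330.0 and 239 in KO-TRAMP (log2 fold change −0.77, SE 0.17, adjusted p 0.655 by limma). Neither gene overlapped between the groups. Slc30a1, the zinc exporter of the plasma membrane, had 379.5, 397 and 360.1 in WT-TRAMP and 237, 280.1 and 274 in KO-TRAMP (log2 fold change −0.52, SE 0.12, adjusted p 0.659 by limma), and Mtf1, the zinc-sensing transcription factor that is known to act on these 3 genes, had 317, 344 and 335 in WT-TRAMP and 308, 259.5 and 249.8 in KO-TRAMP (log2 fold change −0.29, SE 0.13, adjusted p 0.742 by limma). All 4 members lower without overlap are thus named here, and the 2 higher without overlap are not.

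All 7 measured secretoglobins, small proteins secreted by epithelia and encoded together on chromosome 7, had log2 fold changes below 0. Of them 1 lay lower without overlap, against 6.26% of all genes, and the median was −1.31. That median was −0.74 without library 2, −1.88 without library 3 and −0.70 without library 8. Scgb1b27 had 412, 651 and 286 in WT-TRAMP and 178, 161 and 175 in KO-TRAMP (log2 fold change −1.31, SE 0.27, adjusted p 0.574 by limma). Scgb2b27, its neighbour and the member with the most reads, had 9977, 11233 and 5242 in WT-TRAMP and 5328, 3214 and 5007 in KO-TRAMP (log2 fold change −0.93, SE 0.3, adjusted p 0.716 by limma), where library 3 was within the KO-TRAMP range. Library 3 was the lowest WT-TRAMP library in both, as in Spink1 and Pigr. Of 58 replication-dependent histone genes 6 had a log2 fold change above 0, none lacked overlap, and the median was −0.23 (from −0.46 to −0.02 with each library left out, the latter for library 9). The 78 genes of the mitochondrial ribosome had a median of −0.04, and the 76 of the cytosolic ribosome had a median of 0.01.

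Of the 41 genes that DESeq2 called lower, 3 more were chosen after their values were seen. Gne, the key enzyme of sialic acid synthesis, had 9583, 10731 and 7628 in WT-TRAMP and 6926, 5554 and 6289.7 in KO-TRAMP (log2 fold change −0.57, SE 0.15, adjusted p 0.695 by limma). Slc26a4, the anion exchanger pendrin, had 1627, 2135 and 1564 in WT-TRAMP and 1226, 858 and 917 in KO-TRAMP (log2 fold change −0.83, SE 0.17, adjusted p 0.574 by limma). Mlph, an adaptor that links secretory granules or melanosomes to myosin, had 5448, 4480.5 and 3665 in WT-TRAMP and 2632, 3122 and 2928 in KO-TRAMP (log2 fold change −0.63, SE 0.15, adjusted p 0.659 by limma). In these 3 genes all KO-TRAMP libraries were below every WT-TRAMP library. Hist1h2br, called higher, had 1.75, 0 and 3.3 in WT-TRAMP and 909, 1.96 and 106 in KO-TRAMP, so that 1 library held nearly all of it, and 89.5% of its 31-base words occur in another gene.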
